A study of Mus musculus with 2 samples.

Results

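Pf4-positive cells are described here, the cells of 2 mouse single-cell libraries that held transcripts of Pf4 (platelet factor 4, ENSMUSG00000029373) without a neutrophil-level share of S100a8 and S100a9. They were chosen by measured values, as cells with at least 2 Pf4 UMIs (unique molecular identifiers, each a captured transcript) and less than 1% of UMIs from S100a8 and S100a9 together. The rule took 80 of 6004 cells with an shRNA against Cxxc5 and 41 of 2912 cells with a control shRNA, or 121 of 8916 cells in all. Pf4, S100a8 and S100a9 therefore describe the choice and are not results. Read against megakaryocyte markers, most of these cells did not lean to that lineage. Among them 12 knockdown and 7 control cells held 5 or more Pf4 UMIs, and most of these 19 cells carried many other megakaryocyte transcripts, while the other 68 and 34 did not.

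The knockdown group was bone marrow of 5 C57BL/6 mice, enriched for blood stem cells and progenitors and infected with a retrovirus that carries an shRNA against Cxxc5, a CXXC zinc finger protein gene. The control group had the same strain, infection and culture with a retrovirus that targets no mouse gene. In both, GFP-positive LSK cells (lineage-negative, Sca-1-positive, Kit-positive) were sorted and then grown for 3 days with 10 ng/ml GM-CSF, 10 ng/ml SCF and 20% serum. In each group 5 samples were pooled into 1 library, so no difference below has a replicate check, no test was possible, and each interval (95%) covers counting error only and treats UMIs as independent. Kept knockdown cells had a median of 10599 UMIs and kept control cells 17197.

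Megakaryocytes are the large bone marrow cells that shed platelets, and they descend from blood stem cells through progenitors that can share a path with red cells. Their maturation is driven by the hormone thrombopoietin and by transcription factors such as Gata1, Fli1, Runx1 and Nfe2. Pf4 is a CXC chemokine packed into platelet alpha granules and is a classic marker of the lineage. The cytokines named in the labels did not include thrombopoietin.

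Most members held 2 or 3 Pf4 UMIs, and a few held more, up to 318. Among knockdown members, 55 cells held 2 Pf4 UMIs and 13 held 3. The remaining 12 held 5, 6, 9, 9, 12, 15, 16, 18, 39, 141, 158 and 318. Among control members, 32 cells held 2 UMIs and 2 held 3. The remaining 7 held 10, 55, 117, 181, 194, 200 and 317. No cell of either library held exactly 4. The 12 knockdown and 7 control cells above that gap are called Pf4-rich cells below, a split made after the counts were seen. They contained 48.3% and 75.6% of all Pf4 UMIs of their libraries. Pf4 transcripts made up 0.0639 to 2.71% of the UMIs of a knockdown Pf4-rich cell, with a median of 0.449%, and 0.207 to 5.32% in the control, with a median of 1.58%.

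**Figure D1:**
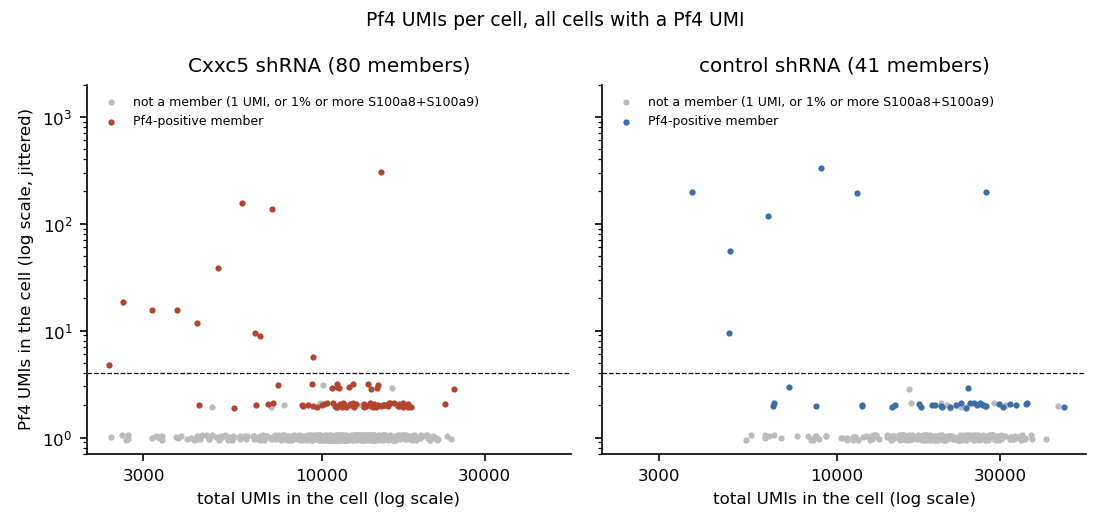
Pf4 UMIs (vertical, log scale, jittered) against total UMIs (horizontal, log scale) for each cell with a Pf4 UMI, knockdown left and control right; coloured points are Pf4-positive cells, grey points are cells outside the rule, and the dashed line marks 4 UMIs. The 12 knockdown and 7 control Pf4-rich cells lie above the line, and the members with 2 or 3 UMIs lie below it.

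Just outside the rule stood 510 knockdown and 195 control cells with 1 Pf4 UMI under the S100 limit. A further 11 cells in each library had 2 or 3 Pf4 UMIs at or over that limit. The S100 share reached 0.981% in knockdown and 0.881% in control members, and began at 1.10% and 1.31% in the cells with 2 or more Pf4 UMIs left out by the limit.

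Free RNA in droplets can put a few UMIs of a gene into cells that do not express it. Cells with 1% or more S100a8 and S100a9, a neutrophil-like class called S100-high cells, are set beside the cells under the limit here. In the knockdown library 12.6% (11.6 to 13.5%) of the cells under the limit held a Pf4 UMI, against 9.70% (8.15 to 11.4%) of the S100-high cells, and these intervals did not overlap. Median depths, members left out, were 10885 UMIs under the limit and 9436 UMIs in S100-high cells. In the control library the shares were 11.2% (9.91 to 12.7%) under the limit and 8.52% (6.69 to 10.7%) in S100-high cells, at median depths of 18229 and 15171 UMIs, and the intervals overlapped. Counts of 2 or 3 Pf4 UMIs were found in 1.45% (1.13 to 1.83%) of knockdown cells under the limit against 0.840% (0.420 to 1.499%) of S100-high cells. In the control they were found in 1.62% (1.12 to 2.25%) against 1.36% (0.680 to 2.42%). For 2 or 3 UMIs the intervals overlapped in both libraries. These shares describe the choice, and whether low Pf4 counts came from free RNA or from low expression was not tested. Without the Pf4-rich cells, Pf4 stood at 13.1 CPM (UMIs per 1e6) in knockdown cells under the limit and 11.1 CPM in S100-high cells, and at 7.20 and 6.54 CPM in the control. Of the S100-high cells, 0 of 1309 knockdown and 0 of 810 control cells held 4 or more, which allows shares of up to 0.281% and 0.454%.

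The members differed in depth along the same split. Knockdown Pf4-rich cells had a median of 5398.5 UMIs (2375 to 14920) and control ones 6266 (3758 to 27318). Members with 2 or 3 Pf4 UMIs had medians of 12377 in the knockdown and 23501 in the control library, so Pf4-rich cells were the shallower and the other members the deeper cells. Median mitochondrial shares were 3.98% in knockdown and 4.34% in control Pf4-rich cells, close to the 3.98% and 3.92% of all kept cells.

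A list of 33 megakaryocyte and platelet genes without Pf4 was then read in each cell. Pf4-rich knockdown cells had transcripts of 22, 14, 17, 10, 11, 8, 7, 13, 1, 2, 2 and 2 of these genes, in falling order of Pf4. Pf4-rich control cells had 19, 21, 18, 19, 18, 11 and 5. At least 7 of the 33 genes were found in 8 of 12 knockdown and 6 of 7 control Pf4-rich cells, against 2 of 5992 and 1 of 2905 of all remaining cells. In members with 2 or 3 Pf4 UMIs the median was 1 gene in the knockdown and 2 in the control library, and no such cell had more than 4. Other cells under the S100 limit had the same medians, 1 and 2. With each cell thinned to 2000 UMIs, the medians were 5 genes in knockdown and 9 in control Pf4-rich cells, and 0 in every other group of both libraries.

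**Figure D2:**
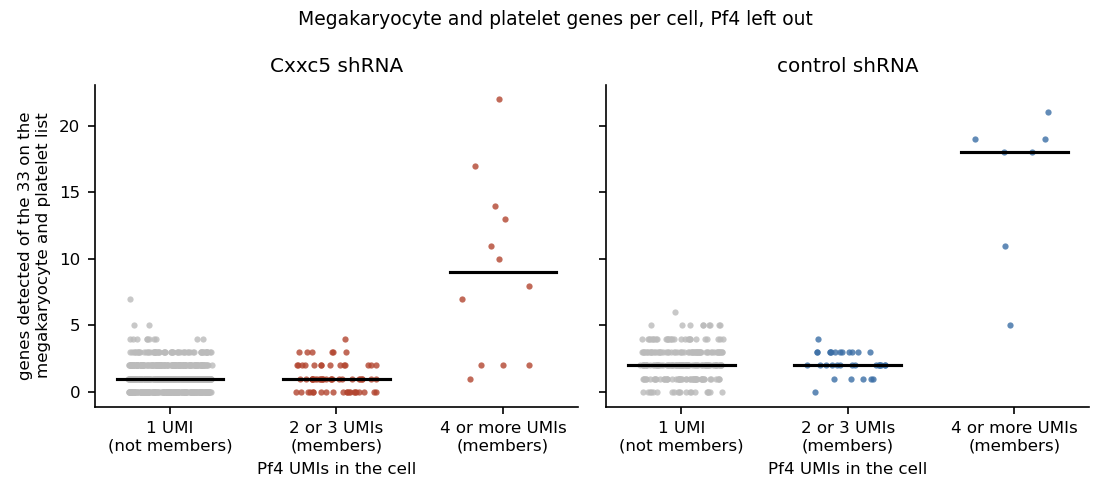
Number of the 33 megakaryocyte and platelet genes detected per cell (vertical), by Pf4 UMIs in the cell (horizontal), knockdown left and control right; coloured points are members, grey points are all cells with 1 Pf4 UMI, and bars are medians. Pf4-rich cells have medians of 9 and 18 genes, and members with 2 or 3 UMIs have 1 and 2.

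Summed over the 33 genes, the list had 428 CPM in knockdown Pf4-positive cells against 147 CPM in all other knockdown cells, and 734 CPM in control Pf4-positive cells against 223 CPM in all other control cells. Pf4-rich cells alone had 4436 CPM in the knockdown, against 138 CPM in other cells under the S100 limit (log2 5.01, 4.84 to 5.17), and 6580 CPM against 211 CPM in the control (log2 4.96, 4.82 to 5.10). Members with 2 or 3 Pf4 UMIs had 101 CPM against the same 138 CPM (log2 -0.45, -0.77 to -0.15) and 217 CPM against 211 CPM (log2 0.04, -0.19 to 0.26). The list was thus raised in members through the Pf4-rich cells, which gave 317 of its UMIs in the knockdown and 444 in the control.

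Among measured list genes, those of 5 CPM or more in members or other cells, 16 of 20 were at least 1.5-fold higher in knockdown members than in other cells and 1 lower, and 19 of 22 were higher in control members and 0 lower. Over all genes of 5 CPM or more, 717 of 8580 (8.36%) were higher and 611 (7.12%) lower in knockdown members, and 885 of 8560 (10.3%) were higher and 720 (8.41%) lower in control members. Their median log2 ratios were 3.75 and 4.55, against 0.04 and 0.08 over all these genes. Most of these genes passed the minimum only in the members, where they are high, so the counts are given as a description. Over the whole table, among genes of at least 20 CPM, 173 of 5108 genes (3.39%) were 1.5-fold higher and 116 (2.27%) lower in knockdown members, and 253 of 5075 (4.99%) were higher and 172 (3.39%) lower in control members.

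Several alpha-granule genes besides Pf4 were raised in the same few cells. Ppbp, which encodes the platelet basic protein, a second CXC chemokine, had 19 UMIs in 4 of 12 knockdown Pf4-rich cells and 14 UMIs in 4 of 7 control ones, and 0 in the members with 2 or 3 Pf4 UMIs of both libraries. It stood at 20.1 CPM in knockdown members against 0.13 CPM in other knockdown cells (log2 7.28, 6.02 to 8.68), and at 16.8 CPM against 0.06 CPM in the control (log2 8.09, 6.25 to 10.53). Serpine2, a serine protease inhibitor gene, had 24 UMIs in 6 knockdown and 27 UMIs in 6 control Pf4-rich cells (336 and 400 CPM). It was not confined to them, with 575 UMIs in 499 other knockdown cells and 458 UMIs in 359 other control cells outside the members (9.29 and 9.46 CPM). Mmrn1, the gene of the granule protein multimerin 1, had 8 UMIs in 3 cells and 16 UMIs in 6 cells. Vwf, the von Willebrand factor gene, had 7 UMIs in 5 cells and 12 UMIs in 5 cells. Selp (P-selectin) gave 2 UMIs in 2 knockdown and 3 UMIs in 3 control Pf4-rich cells. Thbs1, a platelet granule protein gene that other blood cells also use, went another way, with 0 UMIs in knockdown and 1 UMI in control Pf4-rich cells. Its 15 knockdown and 88 of 89 control UMIs among members came from cells with 2 or 3 Pf4 UMIs. Clu had 3 UMIs in knockdown and 1 UMI in control Pf4-rich cells, and F5 had 0 in both.

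Platelet receptor genes were found together with Pf4 in the same cells. Itga2b, the integrin alpha-IIb chain of the fibrinogen receptor, had 25 UMIs in 9 of 12 knockdown Pf4-rich cells (350 CPM) and 38 UMIs in 5 of 7 control ones (563 CPM), against 3.40 and 4.13 CPM in other cells under the S100 limit. Itgb3, its beta-3 partner, had 20 UMIs in 6 knockdown cells and 41 UMIs in all 7 control cells. Gp1bb, a chain of the von Willebrand receptor, had 49 UMIs in 8 knockdown cells, with up to 19 in a cell, and 22 UMIs in 3 control cells, with up to 13. Its partners Gp9 and Gp5 had 9 and 4 UMIs in the knockdown and 11 and 15 UMIs in the control, while Gp1ba was at 0 in both. Clec1b, the podoplanin receptor gene, had 4 UMIs and 8 UMIs, Treml1 5 and 10, and Gp6, the collagen receptor gene, 1 and 7. Cd9, a tetraspanin gene that many cells use, had 51 UMIs in 9 knockdown and 64 UMIs in 7 control Pf4-rich cells, but also 26 and 34 UMIs in the other members. P2ry12, the platelet ADP receptor gene, was at 0.

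Among genes of the platelet cytoskeleton, granule release and signalling, Plek (pleckstrin) had 32 UMIs in 8 knockdown and 50 UMIs in 7 control Pf4-rich cells. Rab27b, a GTPase of granule secretion, had 16 UMIs in 7 cells and 28 UMIs in 7 cells, and Lat, a signalling adaptor, 12 UMIs in 8 cells and 26 UMIs in 6 cells. Sdpr had 7 UMIs in 3 knockdown cells and 26 UMIs in 6 control cells. Tubb1, the beta-1 tubulin of proplatelets, and Myl9, a myosin light chain, both genes of late megakaryocytes and platelets, were at 0 UMIs in every kept cell of both libraries, as was Sparc. A count of 0 allows up to 51.6 CPM over the 12 knockdown and 54.7 CPM over the 7 control cells, so low levels of these genes were not detectable at this depth.

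**Figure D3:**
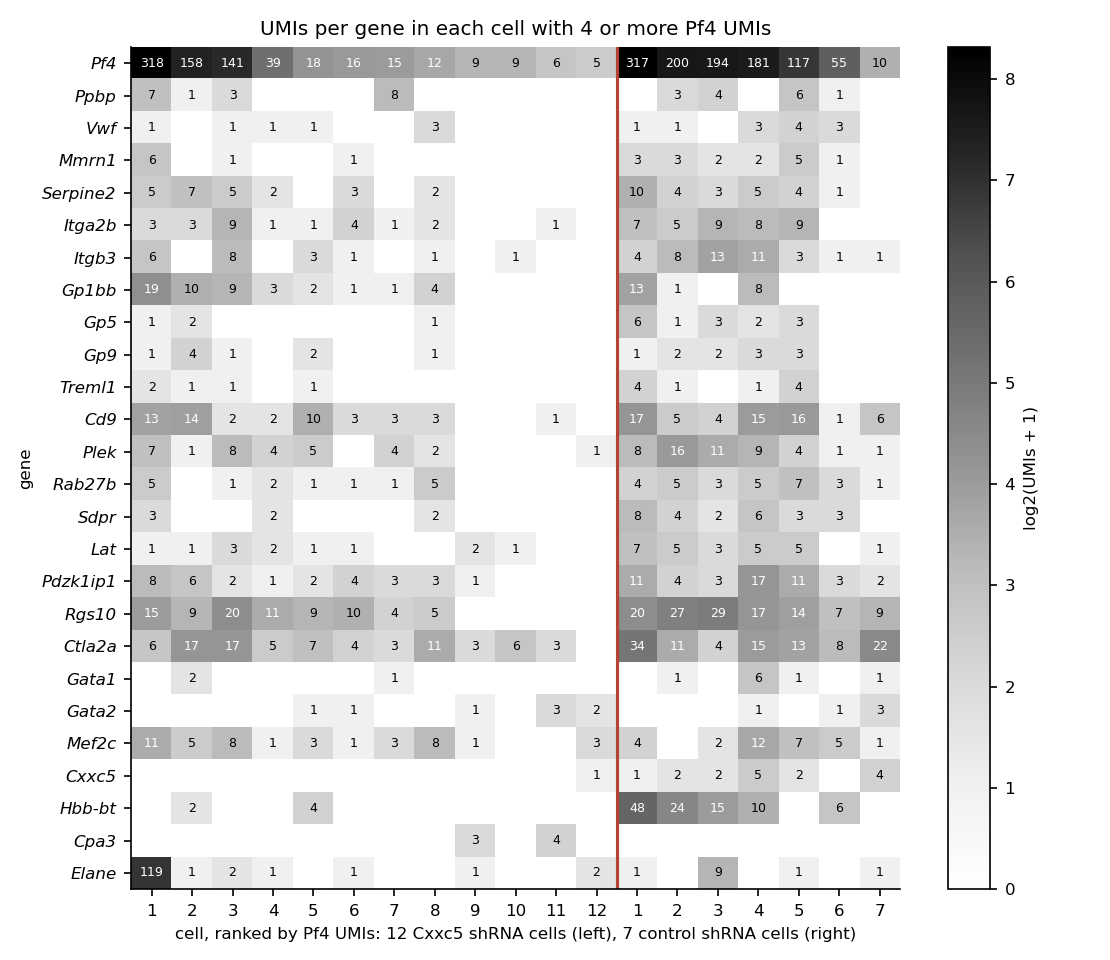
UMIs of 26 genes (rows) in each Pf4-rich cell (columns, ranked by Pf4), with 12 knockdown cells left and 7 control cells right of the line; shade is log2(UMIs + 1) and the number is the UMI count. Several platelet receptor and granule genes have UMIs in each of the first 8 knockdown columns, with fewer in columns 6 and 7, and in the first 6 control columns. They are nearly blank in knockdown cells 9 to 12.

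The Pf4-rich cells differed among themselves. The 4 knockdown cells with the fewest Pf4 UMIs, ranks 9 to 12, had 9, 9, 6 and 5 Pf4 UMIs and 1, 2, 2 and 2 list genes, and they held no Ppbp, Gp1bb or Gp9. Cpa3, a mast cell carboxypeptidase gene that early progenitors can also carry, had 3 UMIs in rank 9 and 4 in rank 11, and rank 11 also had 5 UMIs of the progenitor antigen gene Cd34 and 1 of Kit. The knockdown cell with the most Pf4 held 119 UMIs of Elane, the neutrophil elastase gene of granulocyte-monocyte progenitors, and 10 of Mpo, with 14920 UMIs in all, while the other 11 knockdown Pf4-rich cells had 0 to 2 Elane UMIs each. In the control, the third cell held 9 Elane and 26 Lyz2 UMIs, with 27318 UMIs in all, the deepest Pf4-rich cell, and the other 6 had 0 or 1 Elane UMI each. Scrublet scores, which rank cells by likeness to simulated doublets, had medians of 0.0394 in knockdown and 0.0608 in control Pf4-rich cells, against 0.0617 and 0.0467 in other cells, and removing the highest 288 and 68 scores removed none of the Pf4-rich cells.

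The promoters of 4 of these genes are shown because their transcripts were found in the same few cells, and because Ppbp and Pf4 lie side by side on chromosome 5. They are RefSeq windows of 300 bases on GRCm38.p6, from 250 bases before to 50 bases after the start, for Pf4 at chr5:90772185-90772484 (plus strand), Ppbp at chr5:90768268-90768567 (plus), Itga2b at chr11:102469834-102470133 (minus) and Gp9 at chr6:87777820-87778119 (plus). The Ppbp and Pf4 windows begin 3917 bases apart. Capitals mark GATAA, a form of the motif of GATA factors, and AGGAAG, a form of the motif of ETS factors such as Fli1, on either strand (TTATC and CTTCCT).
Pf4: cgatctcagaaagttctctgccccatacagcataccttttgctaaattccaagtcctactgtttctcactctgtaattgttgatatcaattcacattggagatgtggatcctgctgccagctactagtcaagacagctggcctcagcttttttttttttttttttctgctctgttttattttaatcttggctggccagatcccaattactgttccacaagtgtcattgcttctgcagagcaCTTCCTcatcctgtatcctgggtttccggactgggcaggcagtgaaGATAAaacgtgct
Ppbp: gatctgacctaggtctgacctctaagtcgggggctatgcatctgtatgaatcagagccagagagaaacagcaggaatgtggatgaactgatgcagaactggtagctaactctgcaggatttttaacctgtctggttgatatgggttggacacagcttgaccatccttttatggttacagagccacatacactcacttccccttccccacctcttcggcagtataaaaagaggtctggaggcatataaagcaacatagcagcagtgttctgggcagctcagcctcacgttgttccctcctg
Itga2b: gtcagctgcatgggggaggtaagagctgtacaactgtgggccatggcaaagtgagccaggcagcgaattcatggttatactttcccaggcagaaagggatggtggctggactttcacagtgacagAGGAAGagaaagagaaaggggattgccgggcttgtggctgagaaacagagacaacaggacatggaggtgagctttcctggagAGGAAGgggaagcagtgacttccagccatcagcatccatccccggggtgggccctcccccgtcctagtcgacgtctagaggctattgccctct
Gp9: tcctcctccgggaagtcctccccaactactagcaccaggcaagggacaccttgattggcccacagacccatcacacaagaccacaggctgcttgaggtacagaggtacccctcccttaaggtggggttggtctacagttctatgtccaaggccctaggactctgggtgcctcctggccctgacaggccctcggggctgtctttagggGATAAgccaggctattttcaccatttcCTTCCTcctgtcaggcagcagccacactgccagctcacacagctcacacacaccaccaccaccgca
GATAA or its reverse was found once in the Pf4 and once in the Gp9 window, and not in those of Ppbp and Itga2b. AGGAAG or its reverse was found once in the Pf4 window, once in that of Gp9 and 2 times in that of Itga2b. Of 32851 RefSeq windows of this length, 25.4% held the first and 35.4% the second motif. Windows were at hand for 27 of the 34 list genes, Pf4 included. Of their 28 windows, 11 (39.3%) held the first and 16 (57.1%) the second. The matches are a description of the letters and not of binding.

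Transcription factors of the lineage were raised less than its granule and receptor genes. The 16 genes of the list had 2029 CPM in knockdown Pf4-rich cells against 818 CPM in other cells under the S100 limit (log2 1.31, 1.07 to 1.55), and 2030 CPM against 754 CPM in the control (log2 1.43, 1.18 to 1.67). In members with 2 or 3 Pf4 UMIs the log2 ratios were -0.05 (-0.16 to 0.06) and 0.00 (-0.12 to 0.12). Mef2c, a factor of the megakaryocyte and lymphoid lineages, had 44 UMIs in 10 of 12 knockdown and 31 UMIs in 6 of 7 control Pf4-rich cells. Gata1, the main factor of erythroid cells and megakaryocytes, had 3 UMIs in 2 knockdown and 9 UMIs in 4 control Pf4-rich cells, and Zfpm1, its cofactor, 7 and 6 UMIs. Over all members, Gata1 stood at 4.22 CPM in the knockdown against 1.16 CPM in other cells (log2 1.86, -0.05 to 3.28) and at 13.2 against 1.49 CPM in the control (log2 3.15, 2.09 to 4.08). At least 1.5-fold higher over all members were 7 of 14 measured factors in the knockdown and 5 of 14 in the control, with 0 and 2 lower, beside 8.36% and 10.3% higher and 7.12% and 8.41% lower over all genes of 5 CPM or more. Gata2 had log2 ratios of 0.91 and 0.08, Meis1 of 1.23 and 1.62, Tal1 of 0.57 and -0.71, and Ikzf2 of 0.91 and -0.68. Etv6 had -0.29 and -0.24. Lmo2, Fli1, Runx1, Nfe2 and Lyl1, which progenitors of other lineages also use, were within 1.5-fold of other cells in the members of both libraries.

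Red cell genes were summed over a list of 16 erythroid markers. They had 322 CPM in knockdown Pf4-rich cells against 39.1 CPM in other cells under the S100 limit (log2 3.04, 2.38 to 3.63), and 1882 CPM against 56.1 CPM in the control (log2 5.07, 4.80 to 5.33). Of the 127 control UMIs, 103 were of 1 gene, Hbb-bt. Of the 16 markers, 4 had a UMI in knockdown and 5 in control Pf4-rich cells, and Klf1, the erythroid master factor, was at 0 in both. Car2, a carbonic anhydrase gene, had 10 UMIs in 7 knockdown and 7 UMIs in 4 control Pf4-rich cells, and Blvrb, a biliverdin reductase gene, 5 UMIs in 5 and 13 UMIs in 5 cells. Hbb-bt, an adult beta-globin gene, had the most UMIs of the list in control Pf4-rich cells. Knockdown Pf4-rich cells held 6 Hbb-bt UMIs, in 2 of 12 cells. Control Pf4-rich cells held 103, in 5 of 7 cells, with 48, 24, 15, 10 and 6 UMIs. Alpha-globin Hba-a1 had 0 UMIs in knockdown and 1 UMI in control Pf4-rich cells. Beta-globin genes have near-identical copies, so how reads were shared among them is uncertain, and globin transcripts are also a known part of free RNA in blood samples. Its part in these counts was not tested. Hbb-bt stood at 3.10 CPM in all other knockdown and 11.4 CPM in all other control cells. In the S100-high cells among them it stood at 0.08 CPM in the knockdown and 0.32 CPM in the control.

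Genes outside the lists that were highest in Pf4-rich cells were named by the lower of the libraries' ratios over other cells under the S100 limit. Only genes of 100 CPM or more in Pf4-rich cells were ranked. The genes were thus picked through the group where they are high, and their large ratios are a description. Pdzk1ip1, a membrane protein gene, had 30 UMIs in 9 knockdown and 51 UMIs in 7 control Pf4-rich cells, 420 and 756 CPM, against 1.62 and 1.53 CPM (log2 8.02 and 8.95). Samd14 had 14 and 10 UMIs (log2 7.78 and 7.92). Nrgn, a calmodulin-binding protein gene, had 23 and 29 UMIs (log2 6.55 and 6.60), and F2r, the thrombin receptor gene, 9 and 26 UMIs (log2 5.78 and 6.84). Ctla2a, a cathepsin inhibitor-like gene, was found in 11 of 12 and 7 of 7 cells, with 82 and 107 UMIs. It stood at 1147 and 1586 CPM, against 18.4 and 31.0 CPM (log2 5.96 and 5.68). Ctla2a was also found in 3 of the 4 knockdown cells of ranks 9 to 12.

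Over all Pf4-positive cells, the top genes were set partly by the Pf4-rich cells. The 12 genes furthest above other cells in both libraries were picked among genes of 50 CPM or more in members. Ctla2a came first, at 109 CPM in knockdown members against 14.8 CPM in other cells (log2 2.87). In the control it stood at 162 against 23.5 CPM (log2 2.79). Rgs10, a regulator of G-protein signalling found in platelets, followed (log2 1.06 and 1.49), then Mef2c (0.85 and 0.69), Pdcd4 (0.64 and 0.80), Cd9 (0.62 and 0.78), Rbm38, Rabgap1l, Tpm1, Gemin6, Sh3glb1, Msmo1 and Polr2d, the last at 0.46 and 0.50. Of the Rgs10 UMIs in members, 83 lay in knockdown and 123 in control Pf4-rich cells, which left 49.1 and 43.2 CPM in the other members, against 62.9 and 66.4 CPM in other cells under the limit. Gemin6, Msmo1 and Polr2d had 3, 5 and 1 UMIs in knockdown and 6, 3 and 3 UMIs in control Pf4-rich cells, so their ratios came from the other members.

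Genes whose counts went with those of Pf4 from cell to cell were ranked by correlation across cells thinned to 5000 UMIs, which left out 641 knockdown cells, 6 of them Pf4-rich, and 115 control cells, 3 of them Pf4-rich. Over the remaining 5363 knockdown and 2797 control cells, the highest Pearson correlations among 8362 genes found in at least 2% of cells were those of Ctla2a, 0.184 and 0.225. Tsc22d1 (0.123 and 0.272), Plek (0.103 and 0.198), Serpine2 (0.0968 and 0.212) and Rgs10 (0.0904 and 0.159) followed, with, further down, Fyb, Il12a, Mef2c and Tmem40 (0.0579 and 0.0556). With genes down to 0.1% of cells, Gp1bb came first (0.459 and 0.430), before Pde5a, Clec1b and Vldlr. The cells of each value share 1 library and 1 depth, and these are weak correlations in sparse counts, given as a description.

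Pf4-rich cells had little of the granulocyte-monocyte programme that fills the culture. The 10 progenitor markers of that lineage had 4436 CPM in knockdown Pf4-rich cells against 18523 CPM in other cells under the S100 limit (log2 -2.06, -2.23 to -1.90), and 1260 against 16859 CPM in the control (log2 -3.74, -4.07 to -3.44). Members with 2 or 3 Pf4 UMIs had 20678 and 19992 CPM, log2 0.16 (0.14 to 0.18) and 0.25 (0.22 to 0.27). Mpo, the myeloperoxidase gene, stood at 182 CPM in knockdown and 14.8 CPM in control Pf4-rich cells, against 1801 and 1530 CPM. Elane stood at 1777 CPM in the knockdown, of which 119 of 127 UMIs lay in 1 cell, and at 178 CPM in the control, against 5527 and 5407 CPM. Ctsg, Prtn3 and Ms4a3, further genes of primary granules and their precursors, had log2 ratios of -2.79, -2.05 and -2.33 in the knockdown and -4.24, -2.95 and -3.14 in the control. Over all members, which hold more of the other cells, Elane had log2 ratios of -0.18 and -0.23 and Mpo of -0.09 and 0.12.

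**Figure D4:**
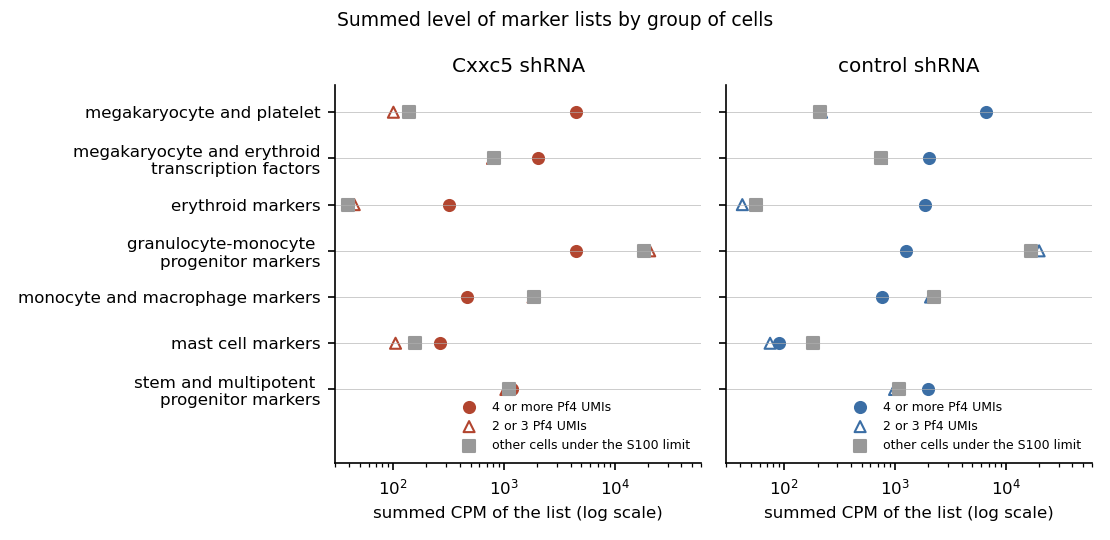
Summed CPM of 7 marker lists (horizontal, log scale) in Pf4-rich cells (filled circles), members with 2 or 3 Pf4 UMIs (open triangles) and other cells under the S100 limit (grey squares), knockdown left and control right. Triangles lie close to the squares for the megakaryocyte and granulocyte-monocyte lists, while the circles are above them for megakaryocyte genes (4436 and 6580 CPM) and below for granulocyte-monocyte genes.

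Markers of other lineages were read in the same cells. Mast cell markers (14 genes) had 117 CPM in knockdown members against 132 CPM in other cells, and 75.8 against 144 CPM in control members. The median log2 ratios of the measured genes were 0.21 over 7 genes and -0.88 over 10 genes. In Pf4-rich cells the 14 genes had 19 UMIs in the knockdown, 6 of the genes with a UMI, and 6 UMIs in the control, all of Slc18a2, the vesicular monoamine transporter that platelets also use. Slc6a4, the serotonin transporter gene of platelets, had 3 and 5 UMIs in Pf4-rich cells. The 10 basophil markers had 2044 CPM in knockdown and 2208 CPM in control members, mostly Ifitm1, and Prss34, a basophil protease gene, was at 0. Of 10 dendritic cell markers, knockdown Pf4-rich cells held 0 UMIs and control ones 7, of which 6 were Cd74. Monocyte and macrophage markers had 462 and 771 CPM in Pf4-rich cells against 1877 and 2270 CPM in other cells under the limit, and neutrophil markers 294 and 88.9 CPM against 600 and 568 CPM. Stem and multipotent progenitor markers had 1189 and 1971 CPM against 1101 and 1094 CPM. Among CXC chemokine genes next to Pf4, Ppbp was the only one with more than 1 UMI in members.

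Cell cycle lists were read in the same cells. S phase genes had log2 ratios of -0.67 (-1.04 to -0.33) in knockdown and -0.22 (-0.54 to 0.09) in control Pf4-rich cells, and G2/M genes of 0.04 (-0.24 to 0.31) and -0.71 (-1.10 to -0.34). The D-type cyclins and genes of endomitosis, the doubling of the genome without division by which megakaryocytes grow, had -0.41 (-0.97 to 0.11) and 0.73 (0.33 to 1.11). The D-type cyclin genes Ccnd3 and Ccnd2 gave 14 and 9 of the 30 knockdown UMIs. They gave 28 and 20 of the 56 control UMIs, so the control value rests mostly on them.

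Knockdown and control members were then compared, first for the targeted gene. Cxxc5 itself had 2 UMIs in the 80 knockdown members (2.11 CPM, 0.256 to 7.63) against 26 UMIs in the 41 control members (31.3 CPM, 20.4 to 45.8), and 1.15 against 9.001 CPM in all other cells. Of the 26 control UMIs, 16 lay in 6 of the 7 Pf4-rich cells, with 1 to 5 UMIs each, or 237 CPM (136 to 385). Other control cells under the S100 limit had 11.8 CPM (log2 4.33, 3.51 to 5.05). Knockdown Pf4-rich cells held 1 Cxxc5 UMI in all, in the cell of rank 12 (14.0 CPM, 0.354 to 78.0).

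Pf4-positive cells made up 1.33% of knockdown cells (1.06 to 1.66%) and 1.41% of control cells (1.01 to 1.91%), a log2 ratio of -0.08. Pf4-rich cells made up 0.200% (0.103 to 0.349%) and 0.240% (0.0967 to 0.495%). The intervals overlapped in both cases, and no difference in either share was detectable with these numbers of cells. With 1 Pf4 UMI as the minimum, 9.83% of knockdown and 8.10% of control cells were taken, a log2 ratio of 0.28 (0.06 to 0.50) whose sign is the opposite. Thinned to 5000 UMIs per cell, the rule took 24 of 5363 knockdown and 7 of 2797 control cells, a log2 ratio of 0.84, and thinned to 2000 UMIs it took 16 of 6004 and 8 of 2912. Pf4 itself had 10.5 CPM in the other knockdown cells and 5.70 CPM in the other control cells, outside the members. The rule leaves at most 1 Pf4 UMI in other cells under the S100 limit, whose median depths were 10885 and 18229 UMIs. These Pf4 values thus describe the choice and are not a result.

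Between Pf4-rich cells of the libraries, several platelet genes were lower in the knockdown. Many other genes also differed in these few cells, where 1194 genes of at least 50 CPM were 1.5-fold lower and 743 higher. How many genes were compared there is not given, so these counts have no share beside them. In sums this small, 3 UMIs make 42.0 CPM in the knockdown and 44.5 CPM in the control. Over all 12 and 7 cells, Itgb3 had a log2 ratio of -1.12 (-1.97 to -0.31), Sdpr of -1.98 (-3.42 to -0.73), Gp5 of -1.99 (-4.04 to -0.34), Lat of -1.20 (-2.32 to -0.16) and Plek of -0.73 (-1.41 to -0.06). Gp1bb went the other way, at 1.07 (0.32 to 1.87), and the intervals of Itga2b, Ppbp, Vwf, Mmrn1 and Gp9 included 0. The knockdown cells of ranks 9 to 12, with few of these genes, count in these sums. They held 6383, 6605, 9389 and 2375 of the 71468 UMIs of knockdown Pf4-rich cells. Of the 317 UMIs of the megakaryocyte and platelet list, they held 2 each. Their part in the ratios was not tested.

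Over all members, 66 of 2768 genes of at least 50 CPM (2.38%) were 1.5-fold higher and 109 (3.94%) lower in knockdown than in control Pf4-positive cells. In all other cells, where the sums are far deeper, 1 of 2548 genes was higher and 22 were lower by the same rule. In members with 2 or 3 Pf4 UMIs, 88 of 2762 were higher and 101 lower. The furthest genes are given as values of these libraries.

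Hbb-bt was furthest lower in knockdown members, at 10.6 CPM against 124 CPM in control members (log2 -3.55, -4.65 to -2.62), and at -1.88 in all other cells. Members with 2 or 3 Pf4 UMIs held 4 Hbb-bt UMIs, in 1 cell, in the knockdown and 0 in the control. Thbs1 stood at 15.8 CPM against 107 CPM (log2 -2.76, -3.65 to -1.96), and at -1.22 in other cells. Irf8, a monocyte and dendritic cell factor, had 16.9 against 65.0 CPM (log2 -1.94), with 100% of its member UMIs in 10 cells in each library. S100a4 (-1.83), Lgals3, the galectin-3 gene (-1.63), Lyz2, the lysozyme gene of monocytes and neutrophils (-1.52) and Myl10 (-1.38) were also lower in all other cells, at -1.41, -1.05, -0.74 and -1.12. Tsc22d1, which encodes a leucine zipper protein, had 26.4 against 80.6 CPM in members (log2 -1.61), of which Pf4-rich cells held 72.0% in the knockdown and 86.6% in the control, and stood at 0.00 in other cells. Bex6 (-1.33) and Dusp11 (-1.32) completed the 10 lowest.

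Among the 10 highest, Mt2, a metallothionein gene, had 112 CPM in knockdown members against 40.9 CPM in control members (log2 1.45, 0.88 to 2.06), and 0.42 in all other cells. Stfa1, a stefin protease inhibitor gene, had 100.3 against 37.3 CPM (log2 1.43, 0.83 to 2.06), with 80.0% and 87.1% of its UMIs in 10 cells, and -0.42 in other cells. Chil3, a chitinase-like gene of myeloid cells, also differed in sign between members (1.08) and other cells (-0.82), and 81.2% and 100% of its member UMIs lay in 10 cells. The other cells include S100-high cells, which the rule keeps out of the members. In other cells under the S100 limit, Stfa1 stood at 70.4 CPM in the knockdown against 64.1 CPM in the control, the sign of the members. Chil3 stood there at 35.1 against 64.6 CPM. Acly (1.02) and Mvd (1.09), enzymes of lipid and sterol synthesis, Qtrt1 (1.40), Nsmce2 (1.26), Lipg (1.23), Mesdc2 (1.13) and Dtl (0.997) were the others. Of the UMIs of these 10 genes, at most 11.1% in the knockdown and 18.2% in the control lay in Pf4-rich cells, so these ratios describe the members with 2 or 3 Pf4 UMIs.

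**Figure D5:**
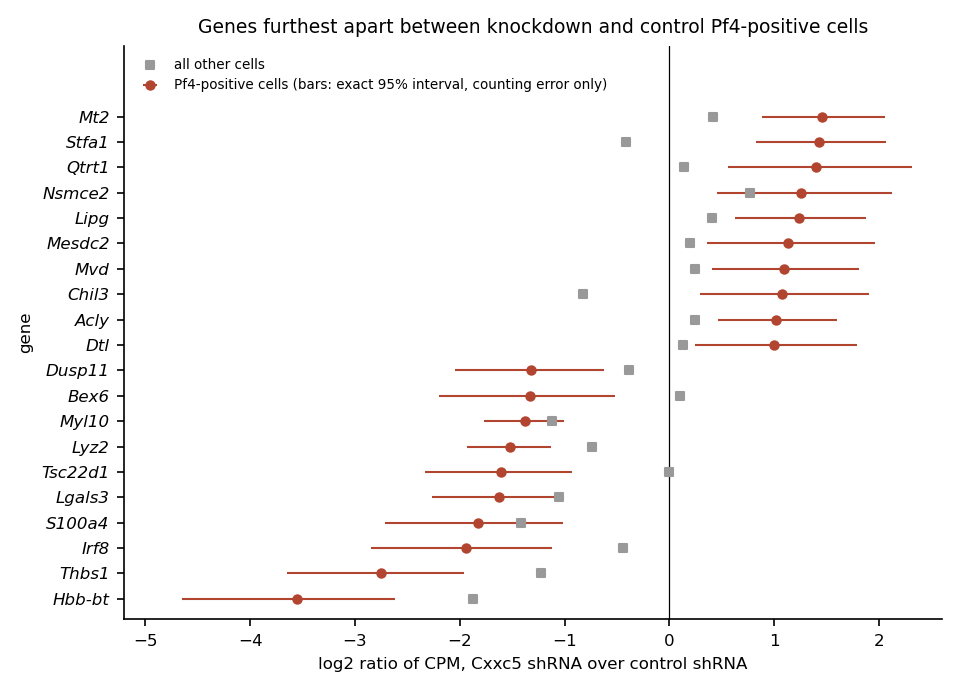
Log2 ratio of CPM, knockdown over control (horizontal), of the 10 highest and 10 lowest genes in Pf4-positive cells (circles, bars are exact 95% intervals of counting error), beside the same ratio in all other cells (grey squares). Hbb-bt (-3.55) and Thbs1 (-2.76) are furthest to the left, and Mt2 (1.45) furthest to the right.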

How the data were processed

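Both deposited matrices hold raw UMI counts, 1 value per gene and barcode, made with Cell Ranger 2.1.1 on mm10 from 10x Genomics 3' libraries, per the submitters' processing notes and the labels. Which annotation release was counted is not given in the sources used here. Cells of at least 500 genes and at most 10% mitochondrial UMIs were kept, 6004 of 6015 knockdown and 2912 of 2925 control barcodes, and each library is 1 sample. The 2 barcode lists share 26 barcodes, of which 1 is a control member and 0 are Pf4-rich. Doublets were kept in. Scrublet, through scanpy 1.11.5, gave scores for an alternative.

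Counts were summed over cells and divided by all UMIs (CPM), with Python 3.11.15, numpy 2.4.6 and scipy 1.17.1. CPM have exact Poisson, shares exact Clopper-Pearson and ratios exact split intervals, at 95%. No p-value was computed. A side with 0 UMIs was set at 3 counts, and a gene entered a median or count only with 3 UMIs found or expected on the side with fewer UMIs. A gene was counted as higher or lower past 1.5-fold. The intervals were tested on simulated counts.

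Members and gene lists were chosen with earlier results of these data known. Named genes were Pf4, S100a8, S100a9 and Cxxc5, genes of the megakaryocyte and transcription factor lists with at least 10 UMIs in members of both libraries together, up to 6 of each other list, the 12 genes highest over other cells, the 10 highest and 10 lowest between libraries, and the 10 most correlated with Pf4. Genes highest in Pf4-rich cells and list genes with fewer UMIs were chosen after their values were seen. Alternatives changed the Pf4 minimum, the S100 and mitochondrial limits, depth, doublets, cell weights, scaling, the minimum level and the comparison cells. The number of unmapped sample columns was 0. Some named genes are not reported here.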

Additional observations from a re-analysis of the deposited data

Results flagged for a closer look

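For 4 genes the ratio of Pf4-positive cells over all other cells had opposite signs in the libraries. Each is a single library a group, so the difference was not tested. Thbs1 had a log2 ratio of -1.10 in the knockdown and 0.43 in the control library. Mt2 had 0.43 and -0.60. Mpo had -0.089 and 0.12, and Prtn3 had -0.054 and 0.060.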

How the results depend on the processing

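No paired analysis was possible because each group is 1 library, and for the same reason no library could be left out. The share of Pf4-positive cells, a log2 ratio of -0.08 of knockdown over control, was 0.84 (-0.42 to 2.30) with cells thinned to 5000 UMIs and 0.28 (0.06 to 0.50) with a minimum of 1 Pf4 UMI, both of the opposite sign. With 2 or 3 Pf4 UMIs only, an alternative chosen after seeing the data, the median log2 ratio of the megakaryocyte list over other cells was -0.56 in the knockdown and 0.013 in the control, against 3.75 and 4.55 with all members. Without the 10 richest cells of each gene it was -0.99 and -0.98, the median of mast cell markers in the knockdown was -2.75, genes higher in members numbered 1 and 0, and genes higher and lower in knockdown than in control members 164 and 36. This takes up to 10 of the 80 knockdown and 41 control members for each gene, and Itga2b, for example, had UMIs in 11 and 8. These falls were thus largely fixed in advance and are no check on the results.

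With 1 Pf4 UMI as the minimum, 3 knockdown and 10 control genes were higher in members, the megakaryocyte medians were 0.37 and 0.51, the knockdown mast cell median was -0.97, and 4 and 16 genes were higher and lower between libraries. With 4 UMIs, which takes 12 and 7 cells, these were 1284 and 1561 genes, 7.54 and 8.17, 1.58 (4.52 in the control, a change of sign) and 743 and 1194 genes. Thinned to 5000 UMIs (24 and 7 cells), they were 1182 and 875 genes, 4.74 and 8.05, 1.05 (2.41 in the control, again a change of sign) and 489 and 872 genes. Thinned to 2000 UMIs (16 and 8 cells), chosen after seeing the data, they were 698 and 489 genes, 6.06 and 7.70, 1.62 in the knockdown and 282 and 502 genes. Medians in such small groups rest on few list genes. The numbers of genes compared at each setting are not given, so the gene counts in this section have no shares beside them.

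Without a minimum level, 995 and 1167 genes were higher in members, and 1251 and 1529 were higher and lower between libraries. With cells of equal weight these were 309 and 714, and 103 and 217, with a control megakaryocyte median of 5.44. Without the S100 limit 105 and 98 genes were higher in members. Median-of-ratios scaling left 154 in the control. A mitochondrial limit of 5% gave a knockdown megakaryocyte median of 2.65. The highest correlation with Pf4, 0.184 as the lower library's value, was 0.296 (Pdzk1ip1) without thinning and 0.430 (Gp1bb) with rarer genes, the second chosen after seeing the data. Apart from the removal of the richest cells, the cause of these changes was not tested. Counts of 12 and 7 Pf4-rich cells limit every value above.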
